A study of Mus musculus with 8 samples.

Results

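The 9 mouse genes that carry, make, recycle or control myo-inositol and other organic osmolytes are described here in brain RNA of C9-BAC and wild-type mice. They were found by matching the RefSeq accessions that name the rows of the authors' deposited table to gene symbols, and each of the 9 genes had 1 row among 15978. The set was drawn up with results of this comparison known, because Slc5a3 stood among the rows of smallest p, so the fold changes and p-values of the members are a description and test nothing about the set. Per the labels, 5 samples carried a BAC with human C9ORF72 and 500 G4C2 repeats, and 3 samples were wild type. A BAC is a bacterial artificial chromosome that carries a long genomic insert. Each sample is taken here as a separate mouse. All 8 were male, of the SJL/Bl6 background, and the tissue is given as brain with no region or age. The sources used here do not give the number of transgenic lines or founders. Strand-specific libraries were made without poly(A) selection, and with 1 value per gene in the table, single mice were not analysed here. In tissue RNA of this kind, fewer cells of a type and less RNA per cell cannot be told apart.

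Myo-inositol is a sugar alcohol with a pair of roles in the brain. It is the head group of phosphatidylinositol, whose phosphorylated forms carry signals from receptors to calcium stores, and it is one of the organic osmolytes that brain cells gather or release to hold their volume when the tonicity around them changes. Cells take it up with sodium through Slc5a3 (SMIT1) and Slc5a11 (SMIT2) or with protons through Slc2a13 (HMIT), make it from glucose 6-phosphate through Isyna1, and recover it from inositol phosphates through Impa1 and Impa2, the lithium-sensitive monophosphatases. Taurine, carried by Slc6a6, and sorbitol, made by Akr1b3, are osmolytes of the same kind. Nfat5 (TonEBP) is the transcription factor that raises several of these transporters and enzymes under hypertonic stress.

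Of the 9 genes, Slc5a3 had the most negative log2 fold change and Impa2 the most positive in the authors' deposited table, and 6 of the 9 lay within 0.1 of 0. On the log2 scale the authors' deposited table puts Slc5a3 at -0.29 ± 0.09 (SE, standard error of the fold change) and Impa2 at 0.20 ± 0.10 (SE). The other 7 genes ran from -0.12 for Impa1 to 0.08 for Slc6a6 in the authors' deposited table. No member passed the DESeq2 test of the authors' deposited table at an adjusted p of 0.05, nor did any of the 15944 rows with a p (percent called 0), and every member stood at an adjusted p of 0.9997. An unadjusted p under 0.05 stood in the authors' deposited table beside 2 of the 9, Slc5a3 and Impa2, against 1.50% of all rows (239), and since the set was chosen on this contrast nothing is read from that count. The members were 4 negative and 5 positive with a median of 0.02 on the log2 scale, and all rows of the authors' deposited table had a median of -0.0043 with 52.5% negative. The numerator of the ratio is not named in the column headers, so a sign is given as deposited and is not a direction in either genotype.

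**Figure D1:**
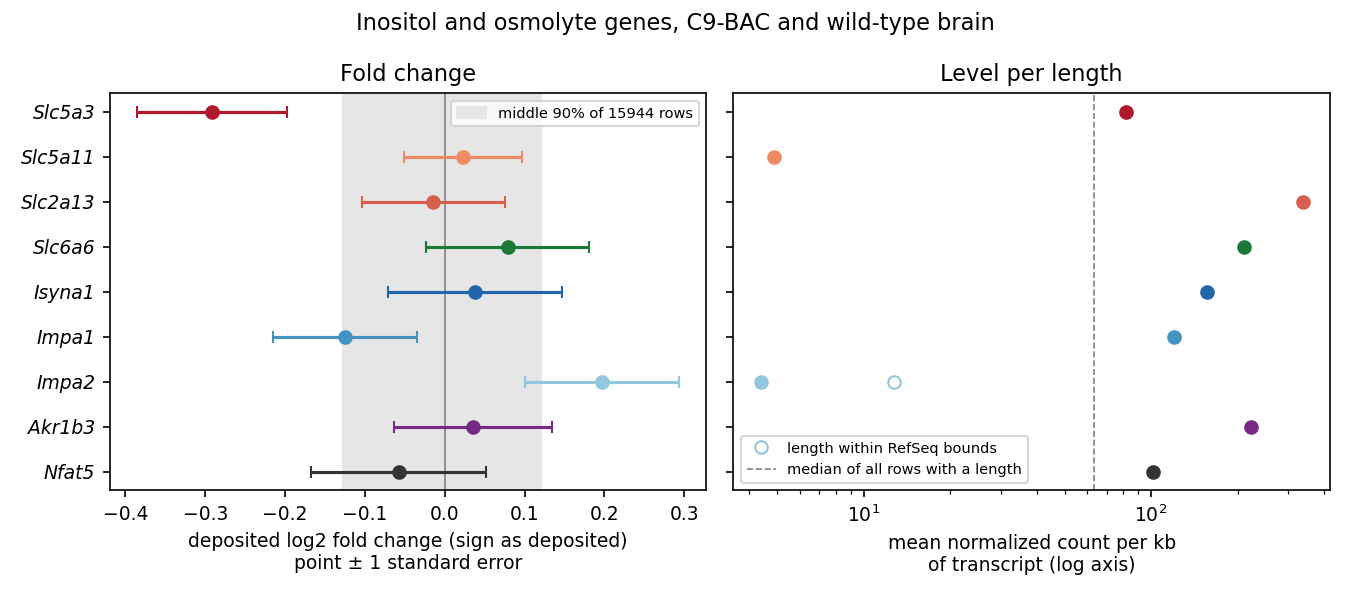
Left, deposited log2 fold change of each gene (point, with 1 standard error to either side), with the grey band from the 5th to the 95th percentile of 15944 rows. Right, mean normalized count per kilobase of transcript on a log axis, with a dashed line at the median of all rows with a length and an open circle for Impa2 at its shorter RefSeq length. Slc5a3 and Impa2 lie outside the grey band on opposite sides.

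Slc5a3 encodes the main sodium-coupled myo-inositol carrier of brain cells. In the authors' deposited table its mean normalized count was 890.2, higher than that of 84.6% of rows, where the mean normalized count is a count scaled by size factors and averaged over the mice. The deposited ratio was 0.817, with a Wald statistic of -3.10 (fold change over SE, on the log2 scale) and an unadjusted p of 0.00192 in the authors' deposited table. Only 7 rows had a smaller p, and 1 row had a more negative statistic, in the authors' deposited table. To pass alone over the whole table the statistic would have had to reach 4.66, which at the standard error of Slc5a3 is a log2 fold change of 0.44 or 1.35-fold. The gene lies on chromosome 16 at 92058322 to 92087473 on the plus strand (GRCm38, also called mm10). Its transcript has 2 exons and 10913 bases, and all 2154 coding bases lie in the second exon, as the GENCODE vM21 annotation gives it.

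Slc5a3 shares its first exon with Mrps6, which encodes a protein of the small mitochondrial ribosomal subunit. In the GENCODE annotation both genes are on the plus strand, the Mrps6 transcript starts 52 bases before that of Slc5a3, and 159 bases are exon in both, at 92058322 to 92058480. That stretch is 1.46% of the Slc5a3 transcript and 18.8% of the Mrps6 transcript, which continues to exons on the far side of Slc5a3. The RefSeq gene bounds start Mrps6 later, at 92058336, which is inside the first exon of Slc5a3, so the shared stretch is shorter there. For Mrps6 the authors' deposited table lists a mean normalized count of 65.5 and 0.11 ± 0.11 (SE) as its log2 fold change (unadjusted p = 0.334, DESeq2 adjusted p = 0.9997). Per kilobase of transcript, the mean normalized count was 81.6 for Slc5a3 and 77.5 for Mrps6, from the authors' deposited table. So 2 rows whose annotated transcripts share exon bases had similar levels per length and deposited fold changes of opposite sign. The Mrps6 value was within its standard error of 0. The difference between Slc5a3 and Mrps6 was not tested, since Slc5a3 was chosen for its value. The sources used here do not say how reads of the shared exon were counted.

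The stretch that precedes every annotated start of both transcripts is shown because it is common to the negative Slc5a3 row and to Mrps6. It is chr16:92058072-92058269 on the plus strand of GRCm38.p6, from the RefSeq promoter table, and ends 53 bases before the Slc5a3 start. Capitals mark each match to GGGCGG, the GC box, searched on both strands.
Slc5a3 and Mrps6 upstream: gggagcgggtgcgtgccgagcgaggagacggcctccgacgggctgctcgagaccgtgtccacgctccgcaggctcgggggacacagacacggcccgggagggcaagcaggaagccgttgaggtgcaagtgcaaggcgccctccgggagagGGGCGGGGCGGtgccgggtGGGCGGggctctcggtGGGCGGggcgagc
The stretch is 198 bases long with 75.8% G or C and 24 CpG dinucleotides. It holds 4 matches to GGGCGG, of which the 2 farthest from the start overlap by a base. In windows from 250 bases before to 50 after a start, GGGCGG occurs in 35.6% of 32817 promoters. The windows of Slc2a13 and Nfat5 hold 3 and 2 matches to it, and those of Slc5a11 and Isyna1 hold 0. TGGAAA, the core of the sites that Nfat5 binds, was also searched on both strands. It occurs in 21.4% of those promoters and in none of the windows of the 5 members with an entry, Slc5a3, Slc5a11, Slc2a13, Isyna1 and Nfat5, which says only that these letters are not there.

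**Figure D2:**
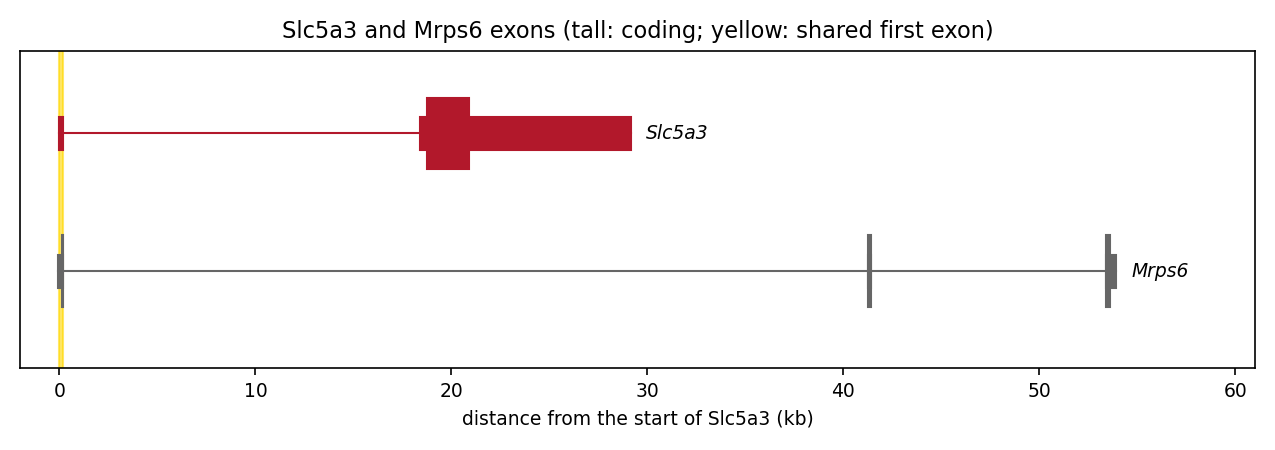
Exons of Slc5a3 and Mrps6 along the chromosome, in kilobases from the start of Slc5a3, with coding sequence tall and untranslated exon low. The yellow band at 0 marks the 159 bases of exon that both transcripts hold.

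The other myo-inositol carriers had fold changes close to 0. Slc2a13, the proton-coupled carrier of neurons and glia, was the most abundant member by count, and the authors' deposited table gives it a mean normalized count of 2202.5 and, as log2 fold change, -0.01 ± 0.09 (SE, unadjusted p = 0.873). Its 10 exons lie on chromosome 15 at 91267691 to 91573261 on the minus strand. Slc5a11, the second sodium-coupled carrier, is given 11.7 as mean normalized count and 0.02 ± 0.07 (SE, unadjusted p = 0.761) as log2 fold change in the authors' deposited table. Its place is chromosome 7 at 123214594 to 123274388 on the plus strand. The Slc5a11 value near 0 says little, because at so low a count fold changes may be shrunk toward 0, as described under the processing. Neither carrier stood as far from 0 as Slc5a3. The difference of either from Slc5a3 was not tested, since Slc5a3 was chosen for its value.

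Synthesis and recovery of inositol gave values of both signs. Isyna1, the synthase that makes inositol 3-phosphate and so sets the supply made within the cell, is given 287.1 as mean normalized count and 0.04 ± 0.11 (SE, unadjusted p = 0.728) as log2 fold change in the authors' deposited table. The gene is on chromosome 8 at 70594481 to 70597290. Impa1, the monophosphatase that frees inositol from its monophosphates, is given 504.6 as mean normalized count and -0.12 ± 0.09 (SE, unadjusted p = 0.167) as log2 fold change in the authors' deposited table. The gene is on chromosome 3 at 10311956 to 10331439. Impa2, its close relative, is given only 22.1 as mean normalized count and 0.20 ± 0.10 (SE, unadjusted p = 0.0405) as log2 fold change in the authors' deposited table. Chromosome 18 holds it at 67289247 to 67319216. The monophosphatase genes therefore had deposited fold changes of opposite sign at abundances far apart, and neither passed the DESeq2 adjustment.

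The taurine and sorbitol genes and Nfat5 lay within their standard error of 0. Slc6a6, the sodium- and chloride-coupled taurine carrier, is given 1299.3 as mean normalized count and 0.08 ± 0.10 (SE, unadjusted p = 0.443) as log2 fold change in the authors' deposited table. Chromosome 6 holds it at 91684048 to 91759063. Akr1b3, aldose reductase, which turns glucose into sorbitol, is given 310.1 as mean normalized count and 0.04 ± 0.10 (SE, unadjusted p = 0.721) as log2 fold change in the authors' deposited table. It lies on chromosome 6 at 34303930 to 34317489, beside its relatives Akr1b8 and Akr1b10, whose log2 fold changes the authors' deposited table gives as 0.02 and -0.02. Their mean normalized counts there were 3.93 and 94.6, and at a count as low as 3.93 a value near 0 says little. Nfat5 is given 1294.1 as mean normalized count and -0.06 ± 0.11 (SE, unadjusted p = 0.599) as log2 fold change in the authors' deposited table. Its row joins 3 RefSeq transcripts on chromosome 8 at 107293435 to 107379517. Slc5a3, Slc6a6 and Akr1b3, all known to be raised by Nfat5, are listed in the authors' deposited table at -0.29, 0.08 and 0.04 on the log2 scale.

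**Figure D3:**
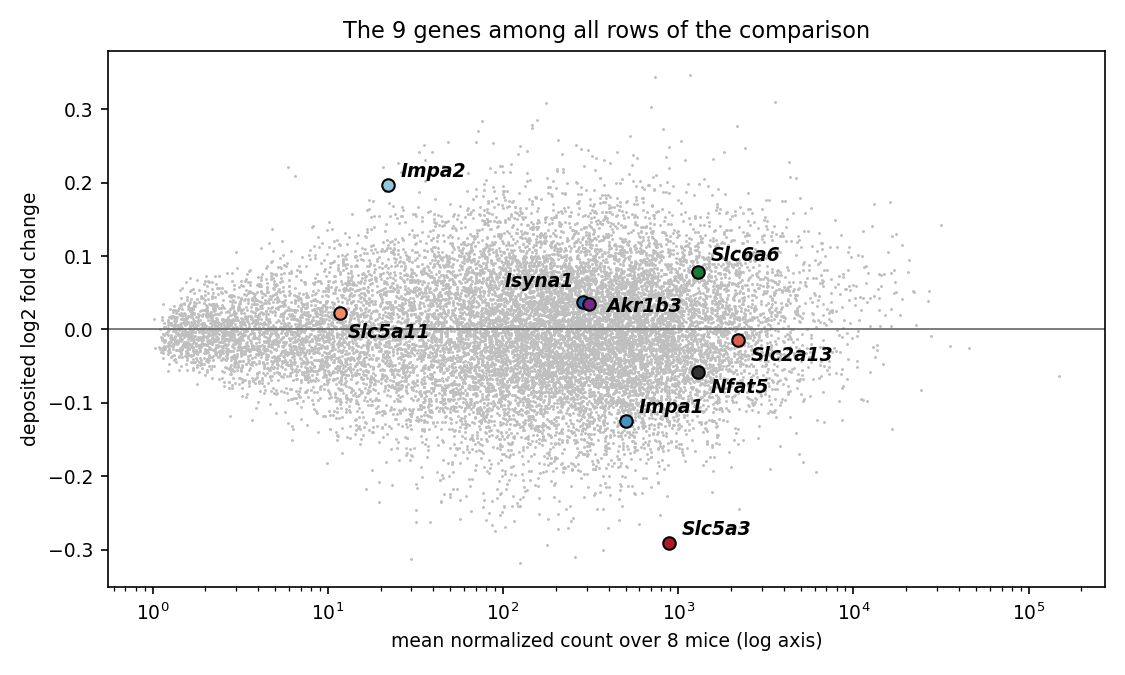
Deposited log2 fold change against mean normalized count (log axis) for the rows with a p (grey) and the 9 genes (coloured). Slc5a3 lies near the lower edge of the cloud at a count of 890.2, and Impa2 above most rows of its low count of 22.1.

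Compared per kilobase of transcript, the carriers and enzymes spanned a wide range of levels. Slc2a13 stood highest with a mean normalized count per kilobase of 337.0, followed by Akr1b3 (223.6), Slc6a6 (210.0), Isyna1 (156.3), Impa1 (120.6), Nfat5 (101.3) and Slc5a3 (81.6), from the authors' deposited table. All 7 were above the median of 63.2 over all rows with a length. Slc5a11 stood at 4.88 and Impa2 at 4.37 per kilobase, from the authors' deposited table. The Slc2a13 level was thus 4.13 times that of Slc5a3 and 69.1 times that of Slc5a11. The transcript lengths are those of GENCODE, and for Impa2 the RefSeq gene ends earlier: with the 1737 exon bases inside the RefSeq bounds in place of 5054, its level was 12.7 per kilobase and above that of Slc5a11. The 3 Nfat5 transcripts differ in length from 4619 to 13380 bases, which puts its level anywhere from 96.7 to 280.2 per kilobase. The table gives no spread over mice for these levels, so neighbours in this order cannot be called different.

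The deposited statistics went with the GC content of the transcripts, and Slc5a3 is a transcript of low GC content. Its GC content was 41.6%, against a median of 50.5% over rows, which puts it in the quintile of rows with the lowest values (29.8% to 44.7%). There 76.2% of 3145 rows were negative, with a median statistic of -0.51, and Slc5a3 had the second smallest p of them in the authors' deposited table. Nfat5 (42.8%) and Impa1 (44.5%) belong to the same quintile and were also negative, while Isyna1 (60.6%), in the quintile with the highest GC content, and Akr1b3 (52.5%) were positive in the authors' deposited table. With the median trend over GC content taken off, the log2 fold change of Slc5a3 was -0.24, its unadjusted p 0.0101 and its place by p the 17th (BH adjusted p = 0.99998). By this measure 1.01% of rows had an unadjusted p under 0.05, Slc5a3 and Impa2 among them. Impa1 then stood at -0.09, Nfat5 at -0.02, Isyna1 at 0.01, Slc2a13 at 0.01, opposite in sign to its deposited value, and Impa2 at 0.20. With the GC content of the exons inside its RefSeq bounds (53.4% in place of 49.6%), the value of Impa2 was 0.18 and its unadjusted p 0.0617. What part the GC content has in these values was not tested.

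**Figure D4:**
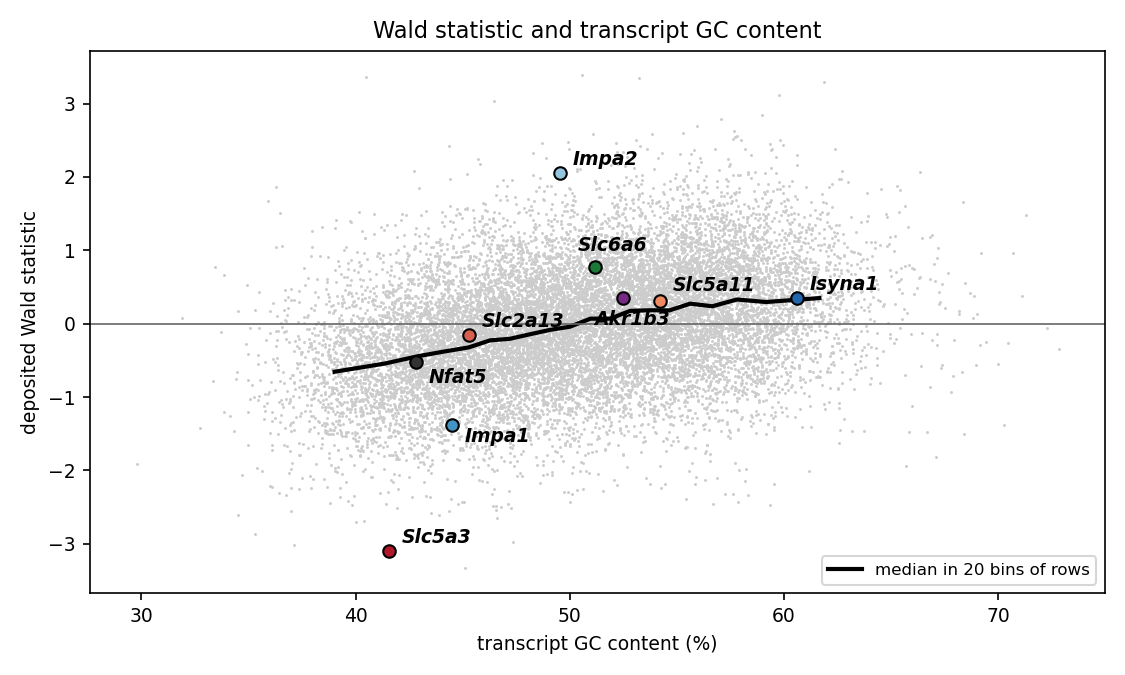
Deposited Wald statistic against transcript GC content for all rows with both values (grey), with the black line joining medians of 20 bins of rows. Slc5a3, at 41.6% GC, lies well below the line, Impa2 well above it, and Isyna1, Slc5a11, Akr1b3 and Nfat5 close to it.

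Genes around these pathways were taken from lists, which hold 174 genes with a p, the 9 included. Of these, 0 passed an adjusted p of 0.05 by DESeq2 in the authors' deposited table, and both genes with an unadjusted p under 0.05 (1.15% of the 174, against 1.50% of all rows) were members. Among the 165 other genes 72 were positive and 93 negative, with log2 fold changes from -0.18 to 0.20 and a median of -0.0079, close to the median of -0.0043 of all rows in the authors' deposited table.

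Enzymes and carriers of organic osmolytes other than the members had 6 positive and 10 negative values and -0.03 as their median log2 value in the authors' deposited table. Among genes of the tonicity response and known targets of Nfat5, 9 of 11 genes that are not members were negative in the authors' deposited table. Their median was -0.06. With the GC trend taken off, 7 of 11 were negative, with a median of -0.05. Of all rows 52.5% were negative. The share was 63.2% in the quintile of second lowest GC content, where the median GC content of this list with its members, 46.9%, lies. An unadjusted p under 0.05 was reached by 0 of the 11 genes in the authors' deposited table, from DESeq2. Over all rows the share was 1.50%, so nothing is read from a count of 0 in so few genes. The members of this group were on both sides of 0, as given above. The anion channel through which swollen cells release inositol and taurine is built of Lrrc8 subunits, and its essential subunit gene Lrrc8a is listed in the authors' deposited table at 0.02 ± 0.10 (SE) on the log2 scale. Lrrc8d, a subunit that favours the passage of uncharged osmolytes, is listed there, in the authors' deposited table, at -0.09 ± 0.11 (SE). Of 18 genes for ion and water carriers that act in cell volume, 8 were positive and 10 negative, with the chloride importer gene Slc12a2 at -0.12 in the authors' deposited table.

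On the signalling side, the phosphatidylinositol cycle had 23 positive and 20 negative genes with a median of 0.0040 in the authors' deposited table. The smallest p-values there belonged in the authors' deposited table to the lipid kinase gene Pi4k2a, at 0.20 ± 0.10 (SE, unadjusted p = 0.0509) on the log2 scale, and the phospholipase C gene Plch2, at 0.19 ± 0.10 (SE, unadjusted p = 0.0659). The kinases and phosphatases of inositol phosphates were listed together with phosphatases of phosphorylated phosphatidylinositol. This mixed list had 14 positive and 16 negative genes with a median of -0.01 in the authors' deposited table. It was led there by the synaptojanin gene Synj2 at 0.17 and the lipid phosphatase gene Inpp4b at -0.18. Potassium channel genes that include known partners of the inositol carriers had 3 positive and 6 negative values, with Kcna1 at -0.10 and Kcnq5 at 0.06 in the authors' deposited table. Only 5 of these 9 genes reached a mean normalized count of 10, and those below it were all negative. By the DESeq2 values of the authors' deposited table, 0 genes of these signalling and channel groups came under an unadjusted p of 0.05, against 1.50% of all rows.

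Relatives of the members by sequence family had values of both signs. Of 12 further Slc5 and Slc6 genes, 4 were positive and 8 negative in the authors' deposited table. Slc6 genes counted above with the osmolyte carriers are not among these 12. The GABA carrier gene Slc6a11 stood at -0.10, Slc6a15 at -0.09 and the one with the largest mean normalized count, Slc6a17, at 0.01 as log2 values in the authors' deposited table. Among 9 sugar carrier genes of the Slc2 family, 2 were positive and 7 negative, with the fructose carrier gene Slc2a5 at 0.17, Slc2a12 at -0.12 and the neuronal glucose carrier gene Slc2a3 at -0.09 in the authors' deposited table. Aldo-keto reductases had 5 positive and 2 negative values and a median of 0.06, with Akr1e1 at 0.14, Akr7a5 at 0.13 and Akr1a1 at 0.07 in the authors' deposited table. The calcineurin-dependent NFAT genes had 2 positive and 2 negative values, with Nfatc1 at -0.09, Nfatc2 at 0.09 and Nfatc3 at -0.09 in the authors' deposited table. A mean normalized count of 10 was reached by 9 of the 12 Slc5 and Slc6 genes and 7 of the 9 Slc2 genes. It was reached by 5 of the 7 aldo-keto reductases and 4 of the 4 NFAT genes. The count of these relatives with an unadjusted p under 0.05 was 0 in the authors' deposited table, from DESeq2, against 1.50% of all rows. At the Slc5a3 locus, Smim11, a neighbour of Mrps6, is listed in the authors' deposited table at -0.02 ± 0.11 (SE) on the log2 scale.

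**Figure D5:**
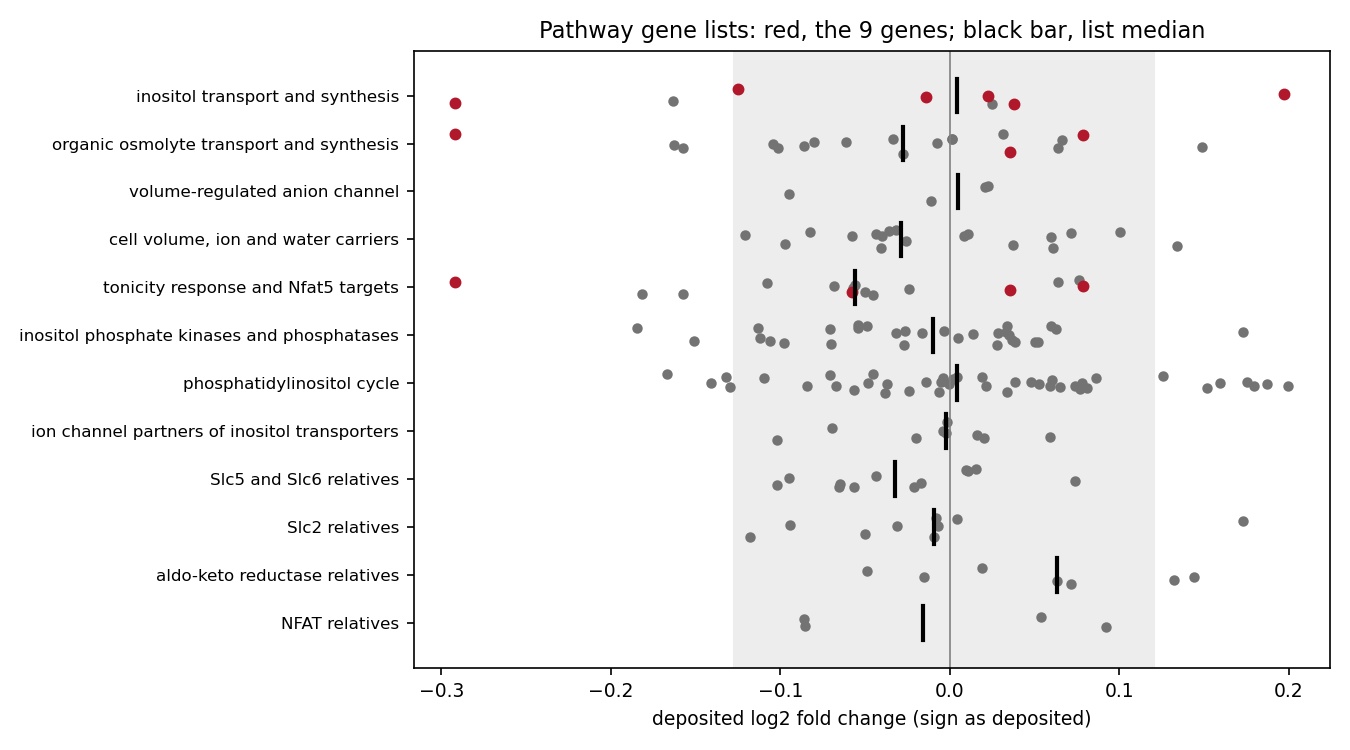
Deposited log2 fold change of every gene with a p in 12 lists, with the 9 genes in red, other genes in grey, list medians as black bars and the 5th to 95th percentile of all rows shaded. The red point at -0.29 is Slc5a3, which appears in 3 lists, and no grey point lies as far from 0.

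Marker genes were read against the brain label: the 4 neuronal markers had mean normalized counts from 1805.8 to 13868.2 and the 4 astrocyte markers from 623.5 to 4739.7 in the authors' deposited table. Markers of the choroid plexus, a tissue rich in osmolyte carriers, were at 2.03 to 35.7 in the authors' deposited table. Of 4 kidney markers 1 was listed there, at 12.3, and of 4 liver markers 1, at 33.2, which is Ttr, also a choroid plexus marker. Of 4 skeletal muscle markers 3 were listed there, at 2.75 to 103.4, the highest being Acta1. Groups of 4 markers each stood for neurons, astrocytes, oligodendrocytes, microglia, endothelial cells, choroid plexus and meninges. Of these markers, 0 came under an unadjusted p of 0.05 by DESeq2 in the authors' deposited table, against 1.50% of all rows. Median log2 fold changes of these marker groups ran from -0.04 for astrocytes to 0.09 for endothelial cells in the authors' deposited table, and their part in the values of the 9 genes was not tested.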

How the data were processed

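The submitters' processing notes name build mm10 and, without versions, Trimmomatic and Bowtie2 beside DESeq and DESeq2. The sources used here name no counter and no filters. The mean normalized count is a signal made by the authors (counts over size factors, averaged over samples), so the depth of each sample is not analysed here. Per the file headers, fold change and standard error are log2 values. The Wald statistic is a score, and the p-value and adjusted p-value are those deposited by the authors. The standard errors were smallest for low counts (median 0.0516 under a mean normalized count of 10, 0.102 overall), and the largest was 0.110. Shrinkage of fold changes toward 0 by a prior would give both. If one was used, the fold changes of all rows, Slc5a3 included, understate differences, and not only those of low-count genes such as Impa2 and Slc5a11.

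The design fixed for a table of results takes the values the authors deposited from DESeq2 as they stand. Symbols came from RefSeq accessions (GRCm38.p6) or GENCODE vM21 for 15930 rows. GC content and length came from vM21 transcripts, medians per row, for 15751 rows (98.6%). Recomputed p-values were two-sided normal with Benjamini-Hochberg (BH) adjustment over all rows with a value, with scipy 1.17.1 in Python 3.11.15. The GC trend is the median in 20 bins of rows; both were tested on simulated data. The members, lists and rules were chosen with earlier results of these data known. Named are all members, in each list the genes with an unadjusted p under 0.05 or else the 2 of smallest p whose mean normalized count reaches 10, the most abundant relative in each family list, and rows overlapping a member. A gene that this rule names is not reported here. Akr1b8 and Akr1b10 were named for their place, after their values were seen. Samples are taken as separate mice from their numbers alone, so p-values may measure technical spread. Alternatives were a filter on low counts, the GC trend taken off, an empirical null, centring, other thresholds and other averages.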

Additional observations from a re-analysis of the deposited data

How the results depend on the processing

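Under every alternative run (only rows whose mean normalized count reaches 10, the GC trend taken off, an empirical null with spread 0.777, and an adjusted p under 0.1), the count of rows that passed was 0, as with the DESeq2 values. The lowest adjusted p of any member was that of Slc5a3 with the empirical null, 0.152. The count of members with an unadjusted p under 0.05 was 2 with the GC trend taken off and with the empirical null, as at an unadjusted p under 0.1, and 1 when the GC content of Impa2 was taken within its RefSeq bounds, a choice made after the data were seen. The count of genes in the lists with an unadjusted p under 0.05 was 2, and moved to 13 with the empirical null, where 5.11% of all rows were under 0.05, and to 12 at an unadjusted p under 0.1, where 3.65% of all rows were. With the GC trend taken off, each of the 9 member values moved by less than its standard error, and that of Slc2a13 changed sign (0.01 against -0.01). The filter leaves the member values as they are by construction, and centring and the empirical null move all of them by nearly the same small amount. The median log2 fold change of the members, 0.02, was 0.0068 with the GC trend taken off, and changed sign to -0.01 over the 7 members whose mean normalized count reaches 100 and to -0.01 as a weighted mean. Leaving out single mice was not run, because the table holds no values of single mice. No paired analysis was possible because the table has 1 value per gene for the whole comparison.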
